A study of Homo sapiens with 9 samples.

Results

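The 8 genes described here encode the enzymes and the transporter that carry gluconeogenesis, with 1 coactivator of the pathway: PC, PCK1, PCK2, FBP1, G6PC, G6PC3, SLC37A4 and PPARGC1A. They were taken by gene symbol from the raw count table, 8 of the 60683 genes listed, and all 8 were among the 22672 genes with enough counts to be tested. RNA was sequenced from cultures of Hep3B, an established human liver cancer cell line, grown in plates for 24 hours in 1 of 3 ways: vehicle (DMSO) at 20% O2, vehicle at 1% O2 (hypoxia), or 32-134D, an inhibitor of the hypoxia-inducible factors (HIFs), at 1% O2. Each group had 3 biological replicates of the same line. There was no group with 32-134D at 20% O2, so the compound was compared with vehicle in hypoxic cells only. In RNA from whole cultures, fewer cells expressing a gene and less RNA per cell cannot be told apart.

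Gluconeogenesis builds glucose from lactate, amino acids and glycerol, and in the body it is mainly a task of hepatocytes. It runs most of the glycolytic reactions backwards, but the one-way glycolytic steps need enzymes of their own: PC and the PCK enzymes turn pyruvate into phosphoenolpyruvate by way of oxaloacetate, FBP1 removes a phosphate from fructose 1,6-bisphosphate, and G6PC removes the last phosphate inside the endoplasmic reticulum, where SLC37A4 delivers glucose 6-phosphate. PPARGC1A (PGC-1α) is a coactivator that switches the pathway on in the fasted liver. HIFs are transcription factors that raise the glycolytic genes when oxygen is low.

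The sequences before the transcription starts of 3 members are shown because these members moved in opposite directions at 1% O2: G6PC was higher, whereas FBP1 and PC were lower. They are the bases before the RefSeq start on GRCh38.p14, 5′ to 3′ on the gene's strand. Capitals mark each match, on either strand, to ACGTG or GCGTG, the cores of a HIF binding site, to TGACG, the core of a cAMP response element, or to TGATGNAA, a site of C/EBP-ATF dimers. The G6PC stretch (chr17:42900549-42900796, plus strand) is 248 bases long, and those of FBP1 (chr9:94639519-94639768, minus strand) and PC (chr11:66958384-66958633, minus strand) are 250 bases long.
G6PC: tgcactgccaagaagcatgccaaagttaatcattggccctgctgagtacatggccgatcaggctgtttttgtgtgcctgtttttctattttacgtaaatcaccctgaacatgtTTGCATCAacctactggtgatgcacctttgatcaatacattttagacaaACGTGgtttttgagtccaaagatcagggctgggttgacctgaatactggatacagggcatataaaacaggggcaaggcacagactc
FBP1: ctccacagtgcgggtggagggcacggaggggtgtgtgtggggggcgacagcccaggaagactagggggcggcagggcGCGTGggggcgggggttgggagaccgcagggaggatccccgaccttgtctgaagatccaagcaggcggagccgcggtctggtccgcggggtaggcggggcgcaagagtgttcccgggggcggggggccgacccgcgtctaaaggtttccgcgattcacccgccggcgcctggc
PC: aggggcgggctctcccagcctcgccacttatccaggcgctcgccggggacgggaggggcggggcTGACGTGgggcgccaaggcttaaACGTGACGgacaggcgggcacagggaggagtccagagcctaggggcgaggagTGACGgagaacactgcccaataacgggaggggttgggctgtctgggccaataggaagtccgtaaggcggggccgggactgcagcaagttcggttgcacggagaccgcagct
G6PC held ACGTG 88 bases and, on the other strand, TGATGNAA 137 bases before the start. FBP1 held GCGTG 173 bases before the start. In PC, ACGTG and TGACG overlapped at both ACGTG matches, and a further TGACG stood alone 111 bases before the start. Of 35116 RefSeq promoters of this length, 18.5% held ACGTG, 32.2% GCGTG, 21.2% TGACG and 3.14% TGATGNAA, so matches to the shorter strings are common. PC has 3 RefSeq starts, of which the first is shown, and the stretches before the other 2 held none of these strings. RefSeq entries were found for 7 of the 8 members, and PCK1 was not among them.

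Total counts ran from 6013980 to 40549699 per library, and a vehicle library at 20% O2 was the smallest. All 11 liver markers checked, with ALB at 5950 to 10200 CPM (counts scaled to library size, with TMM factors), were above 1 CPM in every group, while of the other markers checked CD3E (T cells) and VWF (endothelium) had 0 counts in the whole series, CDH5 (endothelium) had 1 and PTPRC (blood cells) 7. CD68 (macrophages) had 139 counts and PECAM1 (endothelium) 131, at no more than 0.842 and 1.28 CPM in any library. The stromal markers were not all absent: PDGFRB ran from 9.44 to 29.3 CPM and COL1A1 from 2.73 to 10.4 CPM, while COL3A1 had 2 counts. Replicate 3 of 32-134D stood apart: 9.93% of 13911 genes differed by over 1.5-fold from both other replicates of its group, against 0.374% to 3.56% in the other libraries. Among the 6 members above a mean of 1 CPM, 4 did so in this library (FBP1, PCK2, SLC37A4 and PPARGC1A) and none in any other. Without it, 5 members were called for 32-134D against vehicle at 1% O2, beside 30.8% of all genes. Against vehicle at 20% O2, 0 members were called, beside 3.19% of all genes. The values that moved without this library are given beside each result.

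At 1% O2 the pathway did not move as a block. With vehicle, G6PC, PCK1, PCK2 and PPARGC1A rose from 20% to 1% O2, FBP1 and PC fell, and G6PC3 and SLC37A4 did not pass the thresholds (FDR below 0.05 and a fold change above 1.5 in edgeR's quasi-likelihood test). That is 6 of 8 members called, where 39.7% of all tested genes were called (19.5% higher and 20.3% lower), so calls were common over the whole transcriptome. PCK1 is counted among the 6, though it reached the 10 counts over all libraries needed for testing only through vehicle at 1% O2. The median log2 fold change of the members was 0.23 (also 0.23 with PCK1 at its bound, given below) and that of all genes 0.00. No member's group ranges overlapped in this comparison, nor did those of 60.5% of all genes.

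**Figure D1:**
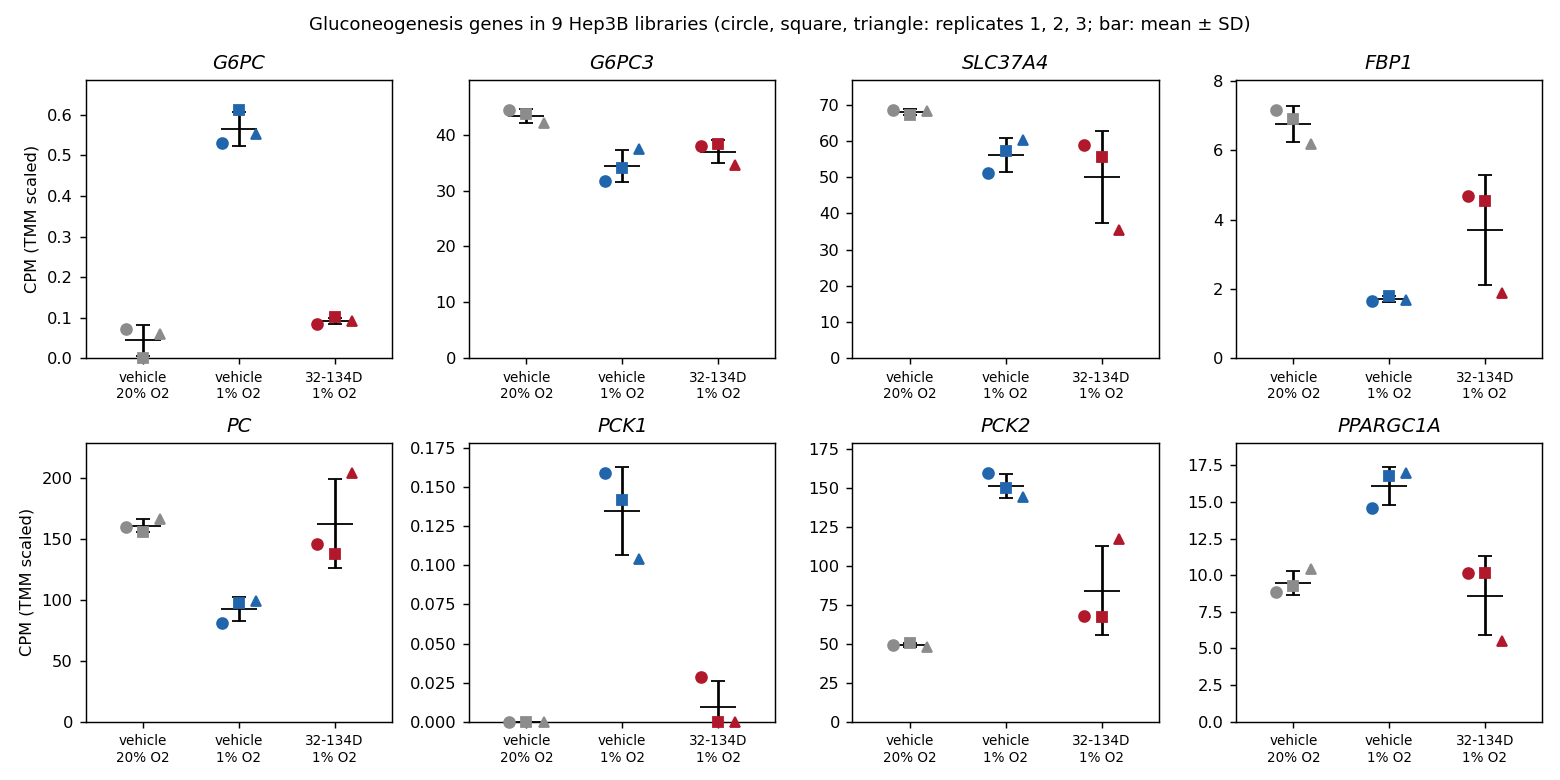
Each panel plots 1 gluconeogenesis gene, with the group on the x axis and CPM on a linear y axis from 0; symbols are the 3 replicates, and the bars are the mean ± SD. G6PC, PCK1, PCK2 and PPARGC1A are highest in the vehicle libraries at 1% O2, FBP1 and PC are lowest there, and the triangle of 32-134D (replicate 3) lies away from the other 2 replicates for FBP1, PCK2, SLC37A4 and PPARGC1A.

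At the entry to the pathway, PC and PCK2 moved in opposite directions. PC, the mitochondrial pyruvate carboxylase that makes oxaloacetate, stood at 159, 156 and 166 CPM in the vehicle libraries at 20% O2 and at 81.1, 97.3 and 98.7 CPM at 1% O2. The log2 fold change was -0.80 (SE 0.126, FDR = 7.01e-05, edgeR), with every hypoxic library below every library at 20% O2. PCK2, the mitochondrial phosphoenolpyruvate carboxykinase, went from 49.2, 50.4 and 47.9 CPM to 160, 150 and 144 CPM, a 3.09-fold rise (log2 fold change 1.63, SE 0.167, FDR = 9.57e-07, edgeR). It was the most abundant of the members that rose, and its groups lay far apart.

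PCK1, the cytosolic carboxykinase that is a classical hormone-regulated gene of the fasted liver, was close to the limit of detection. It had 0 counts in all 3 vehicle libraries at 20% O2, 6, 3 and 3 counts in the vehicle libraries at 1% O2, and 1, 0 and 0 counts with 32-134D. With the group at 20% O2 set to the floor of 3 counts, it was at least 2.42-fold higher at 1% O2, and with the counting error of the 12 reads included, the exact 95% lower limit of the ratio was 1.68. Its call (FDR = 0.0176, edgeR) rested on 12 reads and was lost without replicate 3 of the vehicle group at 20% O2 (FDR = 0.097). Through the same 12 reads it reached the 10 counts needed for testing, so its calls depend on the group where it was high. Without replicate 1 of vehicle at 1% O2, which held 6 of the reads, and after thinning to the smallest library, 7 and 2 counts were left in all and PCK1 could not be tested.

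FBP1, the fructose 1,6-bisphosphatase, fell the most of the 8 genes at 1% O2. It had 7.17, 6.91 and 6.17 CPM at 20% O2 and 1.64, 1.79 and 1.69 CPM at 1% O2. This was a fall to 0.255 of the level at 20% O2 (log2 fold change -1.97, SE 0.274, FDR = 2.05e-05, edgeR), and the hypoxic replicates lay close together. In the same libraries 2 stromal genes also fell, and the summed stromal markers (COL1A1, COL3A1 and PDGFRB) went from 31.9 to 35.8 CPM at 20% O2 to 13.1 to 14.3 CPM at 1% O2, with COL3A1 at 2 counts in the whole series. PECAM1 fell too (log2 fold change -1.88, FDR = 0.0065, edgeR), and the summed endothelial markers went from 0.639 to 1 CPM to 0.0943 to 0.38 CPM. All libraries came from the same cell line. Of the 11 liver markers, 2 were called in this comparison, both lower (APOB -3.47 and AFP -0.69), and 9 were not, beside 39.7% of all genes called. The part of the stromal or endothelial markers in the fall of FBP1 and PC was not tested.

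The last step divided between the 2 catalytic subunits. G6PC, the glucose-6-phosphatase of liver and kidney, had 1, 0 and 2 counts in the vehicle libraries at 20% O2 and 20, 13 and 16 counts at 1% O2, or 0.0717, 0 and 0.0608 CPM against 0.530, 0.613 and 0.553 CPM. The ratio of its summed counts was 9.89 (95% interval 3.19 to 49.6, counting error only), and it passed the test (FDR = 0.000288, edgeR). G6PC3, the subunit found in most tissues, had 44.5, 43.7 and 42.0 CPM at 20% O2 and 31.8, 33.9 and 37.4 CPM at 1% O2. Its log2 fold change of -0.34 (SE 0.085, FDR = 0.00384, edgeR) passed the FDR and not the fold threshold. SLC37A4, the glucose 6-phosphate transporter, ran from 67.0 to 68.6 CPM at 20% O2 and from 51.0 to 60.3 CPM at 1% O2 (log2 fold change -0.28, FDR = 0.114, edgeR).

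PPARGC1A rose modestly. It had 8.82, 9.26 and 10.4 CPM at 20% O2 and 14.6, 16.7 and 17.0 CPM at 1% O2, a 1.68-fold difference (log2 fold change 0.75, SE 0.189, FDR = 0.00364, edgeR). The call was lost when libraries were scaled by their total counts (0.53, FDR = 0.0248), a scaling that moved the median of all genes to -0.21; relative to that median, the difference was 0.74.

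With 32-134D at 1% O2, 6 of 8 members passed the test against vehicle at 1% O2: FBP1 and PC rose, and G6PC, PCK1, PCK2 and PPARGC1A fell. Here too PCK1 is counted, though only the vehicle libraries at 1% O2 gave it enough counts to be tested. Over all tested genes 29.9% were called (16.2% higher and 13.7% lower), and the members' median log2 fold change was -0.51 against -0.01 for all genes. The comparison uses the same vehicle libraries at 1% O2 as the one before, so a high or low value in them moves both in opposite directions. The groups did not overlap for 6 members, as for 56.1% of all genes.

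FBP1 had 4.68, 4.54 and 1.88 CPM with 32-134D, so replicates 1 and 2 were well above the hypoxic vehicle libraries and replicate 3 was just above them. The rise was 2.21-fold (log2 fold change 1.14, SE 0.269, FDR = 0.00257, edgeR), and without replicate 3 the log2 fold change was 1.44 (FDR = 2.18e-08). PC had 145, 137 and 204 CPM, a 1.76-fold rise (log2 fold change 0.81, SE 0.125, FDR = 7.81e-05), or 0.62 on the log2 scale without replicate 3 (FDR = 1.19e-07). For PC it was the other way round than for FBP1: replicate 3 was the highest library. The summed stromal markers were at 27.9 to 30.0 CPM with 32-134D and the endothelial ones at 0.505 to 1.28 CPM, with PECAM1 at a log2 fold change of 1.93 (FDR = 0.00362, edgeR). Their part in these rises was not tested. Of the 11 liver markers, APOB was higher (3.12), 3 were lower and 7 were not called, beside 29.9% of all genes called.

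PCK2 had 68.3, 67.1 and 118 CPM with 32-134D, below the hypoxic vehicle libraries in all 3 replicates. It fell to 0.555 of vehicle (log2 fold change -0.85, SE 0.159, FDR = 0.000437, edgeR), and without replicate 3 the log2 fold change was -1.16 (FDR = 1.3e-13). PPARGC1A had 10.2, 10.2 and 5.49 CPM (log2 fold change -0.89, SE 0.18, FDR = 0.000835), and -0.66 without replicate 3 (FDR = 8.79e-06). Both calls thus stood without the library that stands apart, with PCK2 further from vehicle and PPARGC1A nearer to it.

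G6PC had 3, 3 and 2 counts with 32-134D, or 0.0851, 0.101 and 0.0915 CPM, all below the hypoxic vehicle libraries. The ratio of its summed counts to vehicle was 0.165 (95% interval 0.0676 to 0.352, counting error only; FDR = 0.000364, edgeR). The fitted log2 fold change was -2.54 without replicate 3 (FDR = 0.000735), and the call was lost after thinning to the smallest library (-1.72, FDR = 0.0996). PCK1 had a single count in the 3 libraries, a ratio of 0.0843 to vehicle (95% interval 0.00197 to 0.57, counting error only). Its call (FDR = 0.0258, edgeR) was lost without replicate 2 (FDR = 0.0855) or replicate 3 (FDR = 0.0543) of 32-134D. G6PC3 at 34.6 to 38.4 CPM and SLC37A4 at 35.5 to 58.8 CPM overlapped vehicle, with log2 fold changes of 0.11 (95% interval -0.06 to 0.27, FDR = 0.319) and -0.16 (95% interval -0.44 to 0.11, FDR = 0.371), or 0.15 and 0.03 without replicate 3.

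**Figure D2:**
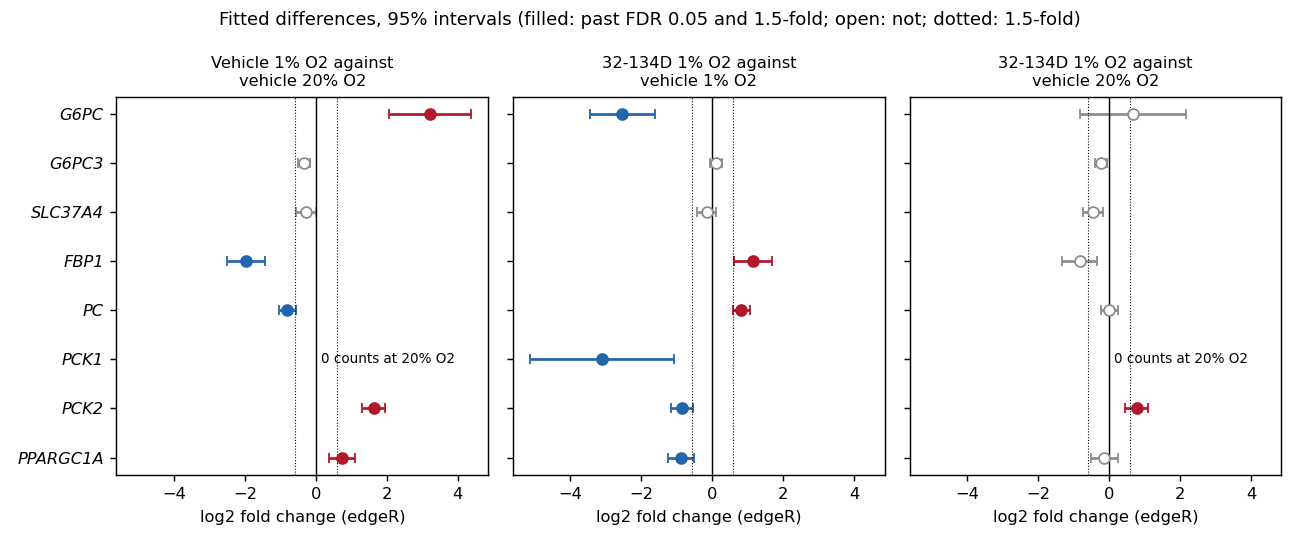
Log2 fold change of each gene on the x axis in the 3 comparisons, with bars for the 95% interval; filled points passed both thresholds (red higher, blue lower) and open points did not. PCK1 is not drawn against vehicle at 20% O2, where it had 0 counts. FBP1 and PC lie left of 0 in the first panel and right of it in the second, G6PC, PCK2 and PPARGC1A lie the other way, and PCK2 is the 1 filled point of the third.

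The libraries with 32-134D at 1% O2 were also set against vehicle at 20% O2. Of the 8 members, PCK2 passed the test, and 3.52% of all genes did (3% higher and 0.516% lower). PCK2 was 1.71-fold higher (log2 fold change 0.78, SE 0.166, FDR = 0.00783, edgeR), with all 3 libraries above those at 20% O2. The call was lost without replicate 3 of 32-134D (0.47, FDR = 6.6e-05, under the fold threshold) and without replicate 3 of vehicle at 20% O2 (0.75, FDR = 0.0507). FBP1 was at 0.563 of its level at 20% O2 (log2 fold change -0.83, SE 0.254, FDR = 0.0529), on the edge of the threshold: leaving out replicate 1 or 2 of 32-134D took it past (-1.02, FDR = 0.0329, and -0.99, FDR = 0.0434), and without replicate 3 it was -0.53 (FDR = 0.0203), under the fold threshold. PC differed by a log2 fold change of 0.01 (95% interval -0.23 to 0.26) and by -0.19 without replicate 3 (FDR = 0.138). PPARGC1A was at -0.14 (95% interval -0.52 to 0.24) and at 0.07 without replicate 3. For G6PC the ratio of summed counts was 1.63 (95% interval 0.392 to 9.56), an interval that holds differences in either direction, and no fold is given for PCK1, which was at or under the floor in both groups. The ranges of 5 members did not overlap here, as for 29.8% of all genes.

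Levels were compared between members per kilobase of exon (RPKM, from the union of exons in GENCODE 29). This union holds the exons of every annotated transcript, such as 1739 bases for FBP1 and 6186 for SLC37A4. Where it is longer than the RNA expressed, the level is understated, so the order of members with close levels is uncertain. At 20% O2, PC was highest at 27.1 ± 0.897 RPKM (SD, n = 3), followed by PCK2 at 11.7, SLC37A4 at 10.98, G6PC3 at 9.53, FBP1 at 3.88 and PPARGC1A at 0.874, with G6PC at 0.0134 and PCK1 at 0, and among neighbours in this order only G6PC and PCK1 overlapped. At 1% O2 with vehicle, PCK2 was first at 36.2 ± 1.87 RPKM and PC second at 15.6 ± 1.65 RPKM, PPARGC1A (1.48) stood above FBP1 (0.983), and no neighbours overlapped. With 32-134D the order was PC, PCK2, G6PC3, SLC37A4, FBP1, PPARGC1A, G6PC and PCK1, where PC (27.4 ± 6.13) overlapped PCK2 (20.1 ± 6.89) and G6PC3 (8.12 ± 0.449) overlapped SLC37A4 (8.08 ± 2.05). In all 3 groups PCK2 exceeded PCK1 and G6PC3 exceeded G6PC.

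At each one-way step the members face glycolytic enzymes that run the opposite reaction. Of 15 such enzymes and their regulators, 13 could be tested, and 11 were called at 1% against 20% O2 (6 higher, 5 lower) and 9 with 32-134D against vehicle at 1% O2 (4 higher, 5 lower), where 39.7% and 29.9% of all genes were called. Their medians were 0.53 and -0.55, against 0.00 and -0.01 for all genes. PFKFB4, which makes the fructose 2,6-bisphosphate that inhibits FBP1, had log2 fold changes of 5.14 in hypoxia and -3.09 with 32-134D (8.10, 9.26 and 7.15 CPM at 20% O2, 265, 284 and 283 CPM at 1% O2, and 36.0, 36.1 and 24.9 CPM with 32-134D). PFKFB3, of the same family, was at 2.14 and -1.88. HK2, the inducible hexokinase, moved by 2.55 and -1.80, from 124 to 150 CPM at 20% O2 to 746 to 868 CPM at 1% O2 and 225 to 239 CPM with 32-134D, and PKM, the pyruvate kinase of dividing cells, by 1.44 and -1.35. PKLR, the liver pyruvate kinase, had the opposite signs (-1.87 and 1.04), with 5.99, 6.79 and 8.02 CPM in vehicle at 1% O2 and 19.6, 17.4 and 4.98 CPM with 32-134D, so replicate 3 lay below vehicle and the groups overlapped (1.43 without it). PFKFB2 (-1.33 and 1.06) and PFKFB1 (-2.14 and 2.70) were also lower in hypoxia and higher with 32-134D. On average per group, PFKFB2 was at 15.67 to 39.85 CPM and PFKFB1 at 0.0699 to 0.5465 CPM. GCKR, which holds glucokinase inactive, fell in hypoxia (-1.10) and was at 0.52 with 32-134D (FDR = 0.0753, edgeR). Of the phosphofructokinases, PFKM moved like FBP1 (-0.65 and 0.62), PFKP rose in hypoxia (1.81) and was at -0.71 with 32-134D (FDR = 0.0579), and PFKL, the liver form, was at 0.48 and -0.55, past the FDR and not the fold threshold. Without replicate 3 of 32-134D, 10 were called against vehicle at 1% O2, beside 30.8% of all genes. PFKP (-1.22) and GCKR (0.71) were then past the thresholds and PFKM (0.57) was under the fold threshold. Against vehicle at 20% O2, HK2 (0.75) and PFKFB4 (2.04) were still higher with 32-134D.

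**Figure D3:**
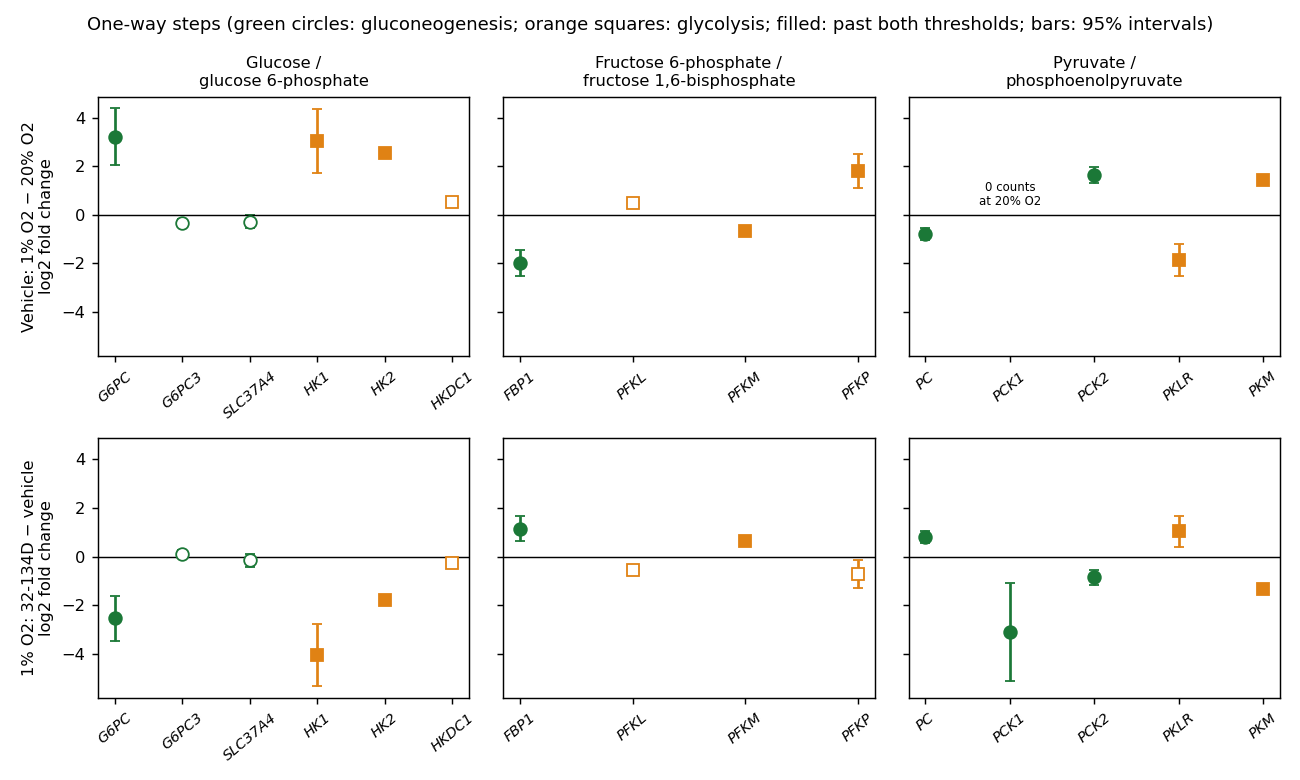
For the 3 one-way steps, log2 fold changes on the y axis of the gluconeogenesis genes (green circles) and of the glycolytic enzymes that oppose them (orange squares), for 1% against 20% O2 in the upper row and 32-134D against vehicle in the lower row; filled symbols passed both thresholds, and bars are 95% intervals. G6PC and HK2 lie on the same side of 0 in each row, as do PCK2 and PKM, whereas FBP1 and PFKP lie on opposite sides, PFKP open in the lower row, and PFKM lies on the side of FBP1.

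Within each library, the ratio of FBP1 to the summed phosphofructokinases (PFKL, PFKM and PFKP, counts per kilobase, 0.5 added) was -2.59 ± 0.163 on the log2 scale at 20% O2 (SD, n = 3), -4.97 ± 0.116 at 1% O2 and -3.52 ± 0.722 with 32-134D. The values of 32-134D were -3.09, -3.12 and -4.35, and all 3 lay between those of the vehicle groups. Without replicate 3, 32-134D differed from vehicle at 1% O2 by 1.87 and from vehicle at 20% O2 by -0.52. Each of the 3 differences (-2.39, 1.45 and -0.94) had an exact two-sided permutation p = 0.1, the smallest that 3 against 3 libraries allows (0.15 after Benjamini-Hochberg adjustment over the ratios). The log2 ratio of G6PC to G6PC3 was -8.51 ± 0.245, -5.42 ± 0.148 and -7.92 ± 0.171, also without overlap between groups (exact permutation p = 0.1). Between vehicle at 20% O2 and 32-134D, that separation rests on 3 and 8 counts of G6PC and the added 0.5, and no direction is drawn from it. G6PC to the hexokinases moved less, from -10.4 ± 0.420 to -9.75 ± 0.122 and -10.6 ± 0.129. The first and last of these rest on the same 3 and 8 counts of G6PC and the added 0.5. HK2 also rose at 1% O2 (mean 138.6 to 809.5 CPM), as did HK1 at a far lower level (0.0681 to 0.661 CPM). Ratios with PCK1 rest on the added 0.5 count at 20% O2 and give no direction there (PCK1 to PCK2, exact permutation p = 0.6).

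**Figure D4:**
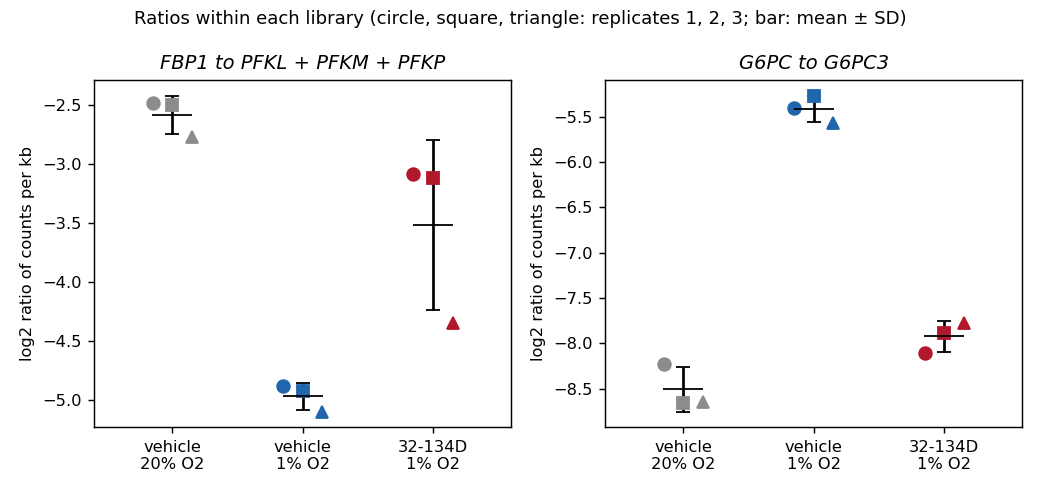
Log2 ratios of counts per kilobase within each library on the y axis, by group on the x axis, for FBP1 to the 3 phosphofructokinases and for G6PC to G6PC3; symbols are replicates and bars the mean ± SD. The 3 groups are separate in both panels, with FBP1 to phosphofructokinases lowest and G6PC to G6PC3 highest in vehicle at 1% O2.

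The enzymes that both pathways share, and those that bring substrate in, were called for 15 of 25 tested genes in hypoxia (11 higher, 4 lower) and for 13 with 32-134D (3 higher, 10 lower), beside 39.7% and 29.9% of all genes. Their medians were 0.12 and -0.25. The higher ones at 1% O2 were mainly the reversible steps between fructose 1,6-bisphosphate and phosphoenolpyruvate, with lactate dehydrogenase: LDHA (3.46), ALDOA (3.03), ALDOC (2.75), PGK1 (2.74), ENO1 (2.07) and GAPDH (1.94). With 32-134D these had log2 fold changes of -2.38, -2.09, -2.62, -2.23, -1.76 and -1.74. For the glycerol entry, GPD1 (-2.61 and 2.17) and GK (-1.32 and 1.15) moved like FBP1. GPD1 was at 0.755 to 4.68 CPM on average per group. GPD2, at 33.2 to 39.7 CPM, had log2 fold changes of -0.25 and 0.25 and was not called. The alanine transaminases moved apart: GPT, the cytosolic form, was at -2.26 and 1.47, and GPT2, the mitochondrial form, at 1.66 and -0.91. Against vehicle at 20% O2, 4 of the 25 were called, and 2 without replicate 3 of 32-134D, beside 3.52% and 3.19% of all genes. Without that library, GPT (-0.52) and GPT2 (0.44) no longer passed the fold threshold. The malate and aspartate enzymes that carry oxaloacetate out of mitochondria (MDH1, MDH2, GOT1 and GOT2) ranged from -0.15 to 0.12 in hypoxia, with none called.

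Of 20 transcription factors and other regulators of the pathway, 12 were called at 1% against 20% O2 (8 higher, 4 lower) and 11 with 32-134D (4 higher, 7 lower), beside 39.7% and 29.9% of all genes, and the medians were 0.30 and -0.24. SIRT1, a deacetylase that acts on PGC-1α, was at 1.98 and -1.12 and CEBPB at 1.87 and -0.81. FOXO3 (1.61 and -1.09) and FOXO1 (0.71 and -0.61), the forkhead factors that insulin restrains, and the CREB coactivator CRTC2 (1.30 and -0.93) were also higher in hypoxia and lower with 32-134D. KLF15 (-2.45 and 2.02), ESRRG (-1.67 and 1.16), CEBPA (-1.61 and 0.87) and TCF7L2 (-1.30 and 1.27) were lower and then higher. CEBPA had 147 to 153 CPM in vehicle at 1% O2 and 364, 347 and 111 CPM with 32-134D, and ESRRG 1.62 to 3.44 CPM and 6.21, 6.19 and 2.79 CPM, so in both replicate 3 fell within or below vehicle and the groups overlapped. Without it their log2 fold changes were 1.25 and 1.47, and the same number of regulators, 11, was called, beside 30.8% of all genes. HNF4A, the hepatocyte nuclear receptor, was at -0.11 (FDR = 0.27) and 0.03 (FDR = 0.8). With 32-134D at 1% O2 against vehicle at 20% O2, CEBPB (1.06), SIRT1 (0.86) and NR4A1 (0.86) were higher. Among the paralogs, PPARGC1B, the closest relative of PPARGC1A, moved opposite to it (-2.94 and 2.92) at 0.0945 to 0.826 CPM on average per group, and G6PC2 had 0 counts and FBP2 3 counts in all 9 libraries.

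PCK2 is known as a target of ATF4, the transcription factor of the amino acid and stress response, so 8 genes of that response were read beside it. All 8 rose at 1% O2 (median log2 fold change 2.11), 7 fell with 32-134D (median -1.02), and 6 were still higher with 32-134D than with vehicle at 20% O2 (median 0.95), beside 39.7%, 29.9% and 3.52% of all genes called. ATF4 itself was at 2.13, -1.19 and 0.94 in the 3 comparisons, and PCK2 at 1.63, -0.85 and 0.78. ASNS, asparagine synthetase, was at 2.46, -1.07 and 1.39. SESN2, at -0.24 with 32-134D against vehicle (FDR = 0.104), was the 1 that did not pass there. Like PCK2, these genes were all highest in replicate 3 among the 32-134D libraries, such as TRIB3 at 121, 122 and 231 CPM. Without replicate 3 the medians were -1.19 and 0.82, with 7 and 6 called, beside 30.8% and 3.19% of all genes. PCK2 was then at -1.16 and 0.47, the second under the fold threshold. The part of ATF4 in the changes of PCK2 was not tested.

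As a description, the tested genes with the pattern most like each member over the 9 libraries were found by Pearson's r of log2 CPM, among 13910 genes or more with a mean of at least 1 CPM. For PCK2 they were GPT2 (r = 0.998), SUCO and NXPH4, for FBP1 B4GAT1 (r = 0.997), PIMREG and CERS4, for PC SLCO2A1 (r = 0.992), EEPD1 and SLC6A19, and for PPARGC1A RAB3IL1 (r = 0.992), TYSND1 and TBC1D17. SLC37A4 was most like KCNH3 (r = 0.991), and G6PC3 most like KCP (r = 0.982). The values for G6PC (GPN1, r = 0.997) and PCK1 (CDS1, r = 0.993) rest on few counts. The 9 points fall into the 3 groups, which all of these values share.

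Counts of 3 members may be raised or lowered where their exons share bases with a gene on the opposite strand. The strand setting of the counting was not given in the sources used here. On GRCh38 (GENCODE 29), 16.3% of the exon bases of FBP1 (ENSG00000165140, chr9:94603133-94640249, minus strand) overlap the antisense RNA PCAT7, which ran from 0.761 to 2.83 CPM and had a log2 fold change of -0.87 at 1% against 20% O2 (FDR = 0.0483, edgeR). For SLC37A4 (ENSG00000137700, chr11:119024114-119030906, minus strand) the share is 8.79%, with TRAPPC4, which rose in hypoxia (1.34) and fell with 32-134D (-1.17). PC (ENSG00000173599, chr11:66848233-66958376, minus strand) overlaps LRFN4 over 10.5% of its exon bases. LRFN4 did not exceed 0.424 CPM in any library, a level that the same overlap may affect. The exons of G6PC (ENSG00000131482, chr17:42900797-42913369), G6PC3 (ENSG00000141349, chr17:44070735-44076344), PCK1 (ENSG00000124253, chr20:57561080-57568112), PCK2 (ENSG00000100889, chr14:24094053-24110598) and PPARGC1A (ENSG00000109819, chr4:23755041-23904089) overlap those of no other annotated gene.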

How the data were processed

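RNA was measured in 9 cultures of Hep3B cells, 3 per group. The authors deposited raw counts per Ensembl gene; their methods and processing notes name FastQC, MultiQC, STAR, featureCounts, DESeq2 and GRCh38, and the strand setting is not given in the sources used here. Columns were matched to samples by name, and 0 were left unmapped. The members, gene lists and tests were chosen with earlier results of these data known.

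From the counts, log2 fold changes were computed with edgeR 4.0.16 in R 4.3.3 (TMM scaling, quasi-likelihood test, 1 fit of the 9 libraries, limma 3.58.1) over 22672 genes with counts summing to at least 10, and p-values were adjusted over all of them (Benjamini-Hochberg). A call needed an FDR below 0.05 and a fold change above 1.5. An SE is the log2 fold change divided by the square root of F. Lengths and positions came from GENCODE 29, with 22265 tested genes found, and promoters from RefSeq. The deposited release may differ. Intervals on summed counts are exact (Clopper-Pearson, 95%). Total counts of 6013980 to 40549699 per library limit G6PC and PCK1, which had at most 20 counts in a library. Replicate pairs differed by more than counting error (chi-square per degree of freedom 1.64 to 40.5), so none was a copy of another library. Whether 2 libraries came from the same RNA cannot be told from these values. The fit was tested on simulated counts with far fewer changed genes than here and no library that stands apart, so that test does not cover these features. Alternatives were DESeq2 1.42.0, other scalings, filters and thresholds, the 2 groups compared alone, thinning to the smallest library, a block for the replicate number, and each library left out in turn.

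The genes named are the 8 members, a part of the list genes, not strictly in order of their change, and for each member up to 3 of the genes most like it.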

Additional observations from a re-analysis of the deposited data

How the results depend on the processing

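Over the alternatives, 365 member fold changes in single settings kept their direction and their side of the thresholds, 8 passed that had not, 10 no longer passed and 8 changed sign. All 8 sign changes were in differences that had not been called. Against vehicle at 20% O2, PC was -0.004 with at least 10 counts in every library, -0.014 with total library size, -0.001 with the replicate block, -0.187 without 32-134D replicate 3 and -0.007 without vehicle replicate 2 at 20% O2, and PPARGC1A was 0.068 without 32-134D replicate 3. Against vehicle at 1% O2, SLC37A4 was 0.026 with total library size and 0.031 without 32-134D replicate 3. Leaving out each library in turn, these 3 ran from -0.187 to 0.118 (PC), -0.272 to 0.068 (PPARGC1A) and -0.243 to 0.031 (SLC37A4). The 8 newly passed were all FBP1 in 32-134D against vehicle at 20% O2, between -1.08 and -0.81, such as -0.84 with DESeq2 (FDR = 0.0162), so that 2 members were called there (1 of them lower) with DESeq2, at least 10 counts in every library, total library size, no filter on low counts, thinning and the replicate block (FBP1 -0.92, FDR = 0.0267). Over all genes, 769 of 22672 were called for 32-134D against vehicle at 20% O2 with total library size, against 798 in the main fit. Thinning lost PPARGC1A in hypoxia (0.50, FDR = 0.0868) and G6PC with 32-134D (-1.72, FDR = 0.0996). PCK1 with 32-134D was lost with no filter (FDR = 0.054) and the block (FDR = 0.051). PCK1 could not be tested after thinning or without vehicle replicate 1 at 1% O2, and DESeq2 gave no adjusted p for it. With at least 10 counts in every library, G6PC and PCK1 could not be tested, so 2 members were higher in hypoxia and 2 lower with 32-134D, as after thinning. With a fold change above 2, 1 member was lower in hypoxia, 3 were called with 32-134D against vehicle at 1% O2 (1 higher, 2 lower) and 0 against vehicle at 20% O2. In these last 2 comparisons 3639 and 304 of all 22672 genes passed that threshold.

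Counts over all genes were 5735, 3639 and 304 in the 3 comparisons with a fold change above 2, and 10761 and 2324 in the 32-134D comparisons with no fold threshold. With at least 10 counts in every library, 4448 were called for 32-134D against vehicle at 1% O2. Total library size moved the share of calls that were higher to 34.5% in hypoxia and 72% with 32-134D, from 49% and 54.2%, with medians of all genes of -0.209 and 0.171. For 32-134D against vehicle at 1% and at 20% O2, the ATF4 list had 4 and 3 called with a fold change above 2 and the regulators 5 and 1 (7 against 1% O2 in a fit of those groups alone, 7 against 20% O2 without a fold threshold). Against 20% O2, the shared steps had 1 called with a fold change above 2 (7 without a fold threshold) and the step antagonists 1 (4 with no filter). The paralogs had 0 to 2 called in any setting. After thinning, the log2 ratio of FBP1 to the phosphofructokinases differed by -2.783 in hypoxia, that of G6PC to G6PC3 by 3.465, -1.571 and 1.894, that of G6PC to the hexokinases by 0.06 and 1.041 in the 32-134D comparisons, and those of PCK1 to PCK2 and to the pyruvate kinases by -0.391 and 0.062 with 32-134D, so the smallest depth does not hold the ratios of G6PC and PCK1. The cause of these shifts was not tested. Leaving out each library in turn gave 5 to 6 members called in each comparison with vehicle at 1% O2. It gave 0 to 2 for 32-134D against vehicle at 20% O2 (0 to 1 higher, 0 to 1 lower), with 2 to 4 shared steps and 2 to 4 step antagonists called. Over all genes, 7859 to 9343 were then called in hypoxia. With 32-134D, 6063 to 6855 were called against vehicle at 1% O2 and 568 to 962 against vehicle at 20% O2. From 22018 to 22563 genes were tested in these fits. No sign of pairing by replicate number was seen: the correlation of same-numbered libraries was -0.14 to 0.06 in 9 pairs, and 7 of 18 correlated best with their own number. With 3 libraries per group, 1 of which stands apart, this check cannot exclude a pairing.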
